A study of Danio rerio with 12 samples.

Results

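Genes of pre-mRNA splicing and genes of the DEAD-box and DEAH-box helicases were taken from whole zebrafish embryos that had been kept in 10 nM morphine and from embryos that had not. The members were all probe sets that the array annotation assigns to a single gene whose symbol starts with snrp, sf3a, sf3b, srsf, hnrnp, prpf, u2af, ddx, dhx, rbm or tra2, or with lsm and a digit. The rule used symbols only and no measured value. It found 183 probe sets for 139 genes, out of 15502 probe sets tested and 8793 genes with a symbol of their own on the array. The embryos were wild-type fish of the AB strain. In the morphine group the drug was dissolved in the embryo medium at 5 hours post fertilization (hpf) and stayed there until collection at 24 hpf, and control embryos of the same age, labelled as having no treatment, were the other group. Each group had 6 pools of about 100 whole embryos, with 1 Affymetrix Zebrafish Genome Array per pool. All values are deposited log2 signals, so that a difference of 1 between groups is a doubling, and differences are given as morphine minus control.

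Splicing removes introns from the primary transcript. It is carried out by small nuclear ribonucleoproteins (snRNPs), each an RNA on a ring of Sm or LSm proteins, together with the PRPF, SF3 and U2AF proteins that bind the splice sites and drive the rearrangements. SR proteins and hnRNPs bind exons and introns and shift the choice between sites. DEAD-box and DEAH-box helicases unwind or remodel RNA in splicing, mRNA export, translation, decay and ribosome assembly, and the family names also cover a few proteins that act on DNA.

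Array medians lay between 5.81 and 5.86 and pairs of arrays correlated at 0.99 to 0.999. Morphine pool 1, control pool 1 and control pool 2 stood apart from the other 9 arrays on the first principal component. The same 3 arrays had the lowest difference between the 3′ and 5′ actin probe sets (3.51 to 3.62, against 4.12 to 5.32 in the other 9). The study's methods selected samples by RNA integrity number. The actin difference is low where little 5′ signal is lost relative to 3′ signal, and what set it was not tested. It averaged 4.51 in morphine pools and 4.34 in control pools (exact permutation test, two-sided, p = 0.647). In a whole embryo, fewer cells of a type and less RNA per cell cannot be told apart. A probe set was called when its limma adjusted p over all 15502 probe sets was under 0.10, the false discovery rate in the study's methods. By that rule 6.85% of all probe sets were called, 3.13% higher and 3.72% lower in morphine embryos. Some tissue markers moved with morphine. In the liver and yolk syncytial layer list, 4 of 7 probe sets were called lower and the summed linear signal was 41800 to 44200 in morphine pools, against 45300 to 47800 in control pools. In the muscle list, 4 of 11 were called lower, with summed signals of 34700 to 44100 in morphine pools and 37800 to 45200 in control pools, which overlapped. For pigment cells, 1 of 4 was called lower (summed signals 1580 to 2000 in morphine pools and 1320 to 1880 in control pools). With the replicate number as a block in the fit, 1 pigment probe set was called lower and 1 higher. None of the 10 neuronal, 6 blood, 4 epidermal, 2 lens or 8 germ cell marker probe sets passed the test. The part of these tissues in the results below was not tested.

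Among the splicing and helicase genes 14 of the 183 members were called, or 7.65%, against 6.85% of all probe sets. Of these, 12 were lower in morphine embryos (6.56%, against 3.72% of all probe sets) and 2 were higher (1.09%, against 3.13%). They came from 12 genes. The lower ones were ddx11, ddx19b (2 probe sets), ddx42, hnrnpub (2 probe sets), lsm4, lsm7, lsm12a, prpf3, rbm7 and srsf2b, and the higher ones were ddx20 and rbm5. All were small changes. The differences of the 183 members ran from -0.37 to 0.27, and none of the called members reached a 1.3-fold change, which 1.64% of all probe sets did while being called. For 9 members the 6 morphine pools did not overlap the 6 control pools (4.92%, against 3.61% of all probe sets). The median difference was -0.01 over members and 0.01 over all probe sets. More of the members than of all probe sets were bright, as defined below (86.9% against 62.2%). A fit of bright probe sets alone called 16 of 159 members (10.1%, against 9.95% of all bright ones). Of the 159, 13 were lower and 3 higher, and of all 9637 bright ones 547 were lower and 412 higher. Without the 3 arrays that stood apart, 9 members were called (4.92%, against 5.92% of all probe sets), of which 7 were among the 14. A fit with the replicate number as a block called 24 members (13.1%, against 9.98% of all), with 18 lower (5.44% of all probe sets were) and 6 higher (4.53% were), and kept all 14.

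**Figure D1:**
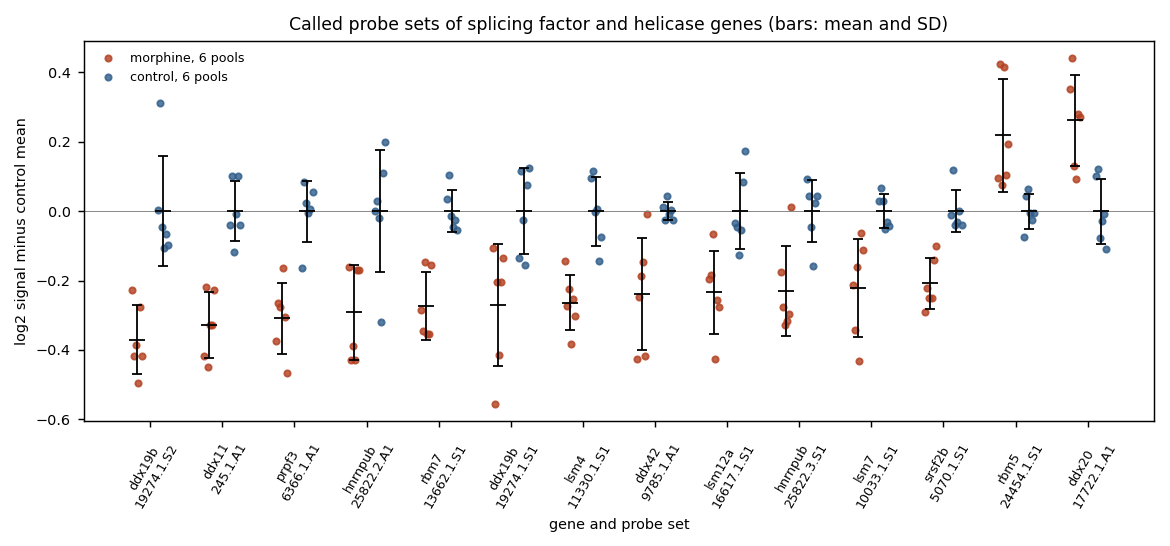
Log2 signal of each pool minus the mean of the control pools (y axis) for the 14 called probe sets (x axis), with morphine pools in red left of control pools in blue and bars for the mean and SD of 6 pools each. Morphine pools lie below the control mean line for most of the 12 lower probe sets and above it for rbm5 and ddx20.

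The Sm, U1 and U2 snRNP proteins with symbols that start with snrp had no called probe set, with or without the replicate block. SF3A, SF3B and U2AF had none in the fit without the block, where 6.85% of all probe sets were called. With so few probe sets in each group, the absence of a call says little. The snrp genes had 11 probe sets with differences from -0.14 to 0.06, and 10 of them were bright. Proteins of the U1 and U2 snRNPs with symbols outside the rule were not counted among them. A probe set is called bright where 6 or more arrays gave it a log2 signal of 5 or above, which held for 86.9% of the members and 62.2% of all probe sets. The brightest was snrpd1, a subunit of the Sm ring. Its lowest, median and highest signals were 11.72, 12.02 and 12.12 in morphine pools and 11.84, 11.94 and 11.98 in control pools (difference 0.06, limma adjusted p = 0.715), so the groups overlapped. The 12 probe sets of SF3A and SF3B, the parts of the U2 snRNP that hold the branch point, ran from -0.20 to 0.16. The lowest, a probe set of sf3a2, was called with the replicate block (limma adjusted p = 0.0687) and not without it (0.334). Their brightest member, sf3b5, differed by -0.02 (limma adjusted p = 0.891), with 10.78, 10.85 and 10.97 in morphine pools and 10.76, 10.89 and 10.98 in control pools. U2AF, which recognises the 3′ splice site, had 3 probe sets with differences of -0.04 to 0.01. The brightest, for the large subunit u2af2b, had signals of 9.99, 10.09 and 10.27 in morphine pools and 9.84, 10.13 and 10.17 in control pools (difference 0.01, limma adjusted p = 0.951).

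Among the LSm proteins, 3 of 17 probe sets were called, all lower (17.6%, against 6.85% of all probe sets called and 3.72% called lower). Of these genes, lsm4 and lsm7 encode subunits shared by the nuclear LSm ring on U6 snRNA and the cytoplasmic ring of mRNA decay. The lowest, median and highest signals of lsm4 were 9.53, 9.65 and 9.77 in morphine pools and 9.77, 9.92 and 10.03 in control pools. All 6 morphine pools were below all 6 control pools, by a margin under 0.01 at the nearest pair, and the difference was -0.27 ± 0.06 (SE, limma adjusted p = 0.0117). It was called without any 1 array and without the 3 that stood apart (0.0485). For lsm7 the signals were 10.36, 10.61 and 10.73 in morphine pools and 10.74, 10.79 and 10.86 in control pools. These groups did not overlap either (difference -0.22 ± 0.06, limma adjusted p = 0.0628), but the call was lost without control pool 1, 2 or 3, without morphine pool 2 or 4 (up to 0.143), with a second quantile normalization (0.118) and without the 3 arrays (0.211). Another ring subunit, lsm6, differed by -0.18 and was not called (limma adjusted p = 0.14, and 0.0647 with the replicate block). The subunits that tell the rings apart were lsm8 of the nuclear ring, with a difference of -0.02 (limma adjusted p = 0.896), and lsm1 of the cytoplasmic ring, with -0.03 (0.883).

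The remaining called LSm probe set belonged to lsm12a, whose product has an LSm domain but is not a ring subunit. It had 5.38, 5.58 and 5.74 in morphine pools and 5.68, 5.77 and 5.98 in control pools, with some overlap (difference -0.23 ± 0.07, limma adjusted p = 0.0606). The call was lost without control pool 5 or 6 or morphine pool 4 or 6 (up to 0.137) and without the 3 arrays (0.11). The other probe sets of lsm12a differed by -0.05 and -0.06 (limma adjusted p = 0.832 and 0.833). In the related gene lsm12b, 1 probe set differed by 0.23 and was called only with the replicate block (0.0489, against 0.183 without it).

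Among the PRPF factors, 1 of 14 probe sets was called (7.14%, near the 6.85% of all probe sets). It measured prpf3, a protein of the U4/U6 snRNP mutated in a human retinal degeneration. Signals were 6.88, 7.06 and 7.18 in morphine pools and 7.18, 7.36 and 7.43 in control pools, where the lowest control value, 7.18 in pool 1, lay away from the other 5 (7.34 to 7.43). The groups touched without overlapping, and the difference was -0.31 ± 0.06 (limma adjusted p = 0.0053). The call did not depend on any 1 array and was kept without the 3 arrays (0.0167). A second prpf3 probe set was dim, at a median of 3.74 in morphine pools and 3.84 in control pools, and differed by -0.12 (limma adjusted p = 0.213). Other PRPF proteins of the U4/U6 snRNP and the tri-snRNP were not called. Among them were prpf4 with -0.04 (limma adjusted p = 0.808), prpf31 with -0.12 (0.36) and prpf6 with -0.15 (0.302). Outside the PRPF group, the tri-snRNP protein zmat2 and the U5 protein txnl4a were called lower, as given below.

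SR proteins had 1 called probe set of 18 (5.56%, against 6.85% of all). It measured srsf2b, 1 of a pair of zebrafish genes for SRSF2 (SC35), an exon-binding splicing activator of nuclear speckles. The 6 morphine pools had 8.54, 8.60 and 8.73 as lowest, median and highest, against 8.79, 8.81 and 8.95 in the 6 control pools. No morphine pool reached a control pool, and the difference was -0.21 ± 0.05 (limma adjusted p = 0.0275). It was kept without each array in turn and lost without the 3 arrays (0.168). The partner gene srsf2a differed by -0.07 (limma adjusted p = 0.731). For srsf1a, another SR protein, the difference was -0.17 (limma adjusted p = 0.11), which passed the threshold under 4 of the alternatives that keep all arrays (0.0878 to 0.0998) and missed it under the others. The difference of srsf7a was 0.26 (0.332), and it was called only with the replicate block (0.0812).

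The hnRNP group had 27 probe sets for 19 genes. Differences were below 0 for 21 of them (77.8%, against 46.2% of all probe sets), with a median of -0.08. Most of these signs belong to uncalled probe sets, where a sign says little. Some genes also count more than once, with 4 probe sets of hnrnpa0b and 3 each of hnrnpa0a and hnrnpub. Only 2 of the 27 were called (7.41%, against 6.85% of all). Both measured hnrnpub, a zebrafish counterpart of HNRNPU, a nuclear matrix protein that binds RNA and chromatin. One had 9.37, 9.41 and 9.71 in morphine pools and 9.54, 9.73 and 9.79 in control pools (difference -0.23 ± 0.06, limma adjusted p = 0.0549). The other had 5.23, 5.38 and 5.50 in morphine pools and 5.34, 5.68 and 5.86 in control pools (difference -0.29 ± 0.08, limma adjusted p = 0.0591). In both the groups overlapped. The first call was lost without control pool 1, 5 or 6 or morphine pool 2, 3, 4 or 5 (up to 0.123) and the other without control pool 1, 3, 5 or 6 or morphine pool 2, 3 or 4 (up to 0.135). The second was also lost with array weights (0.161), and neither was called without the 3 arrays (0.182 and 0.114). The remaining probe set of the gene was dim and differed by -0.08 (limma adjusted p = 0.651), and the probe set of hnrnpua, the related gene, differed by -0.19 (0.17, and 0.0887 with the replicate block). For hnrnpdl, an hnRNP D-like protein, the 6 morphine pools (10.45 to 10.61) lay below the 6 control pools (10.61 to 10.76), yet it was not called (difference -0.13, limma adjusted p = 0.169).

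RNA-binding motif proteins, a family joined by its RNA-recognition domain rather than by 1 task, had 29 probe sets, of which 1 was lower and 1 was higher (6.90% called, near the 6.85% of all probe sets). The lower one was rbm7, part of the complex that hands nuclear transcripts to the exosome. It had 8.30, 8.34 and 8.51 in morphine pools and 8.60, 8.63 and 8.76 in control pools, with a clear gap between the groups. The difference was -0.28 ± 0.05 (limma adjusted p = 0.00679), and the call held without each array in turn and without the 3 arrays (0.0672). The higher one was rbm5, a regulator of alternative splicing, with 8.62, 8.70 and 8.97 in morphine pools and 8.47, 8.54 and 8.61 in control pools. Every morphine pool was above every control pool (difference 0.22 ± 0.07, limma adjusted p = 0.0851), but the call ended without any 1 of 8 arrays, which were morphine pools 2, 4 and 6 and all control pools but pool 2 (up to 0.184), and without the 3 arrays (0.132). Just outside the threshold was a dim probe set of rbm4.1, with a median of 4.64 in morphine pools and 4.90 in control pools (difference -0.19, limma adjusted p = 0.1003). It was called with the replicate block (0.0586), array weights (0.0282), a second quantile normalization (0.084), median centring (0.0921), no probe sets of shared sequence (0.0999) and the actin covariate (0.0509), and without the 3 arrays (0.0551). SAM (0.101) and trend and robust variance (0.118) did not call it. The replicate block also called rbm45 (difference -0.25, limma adjusted p = 0.0452, against 0.247 without it and 0.0472 with the actin covariate) and 1 probe set of rbm39b (0.22, 0.0723 against 0.366).

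**Figure D2:**
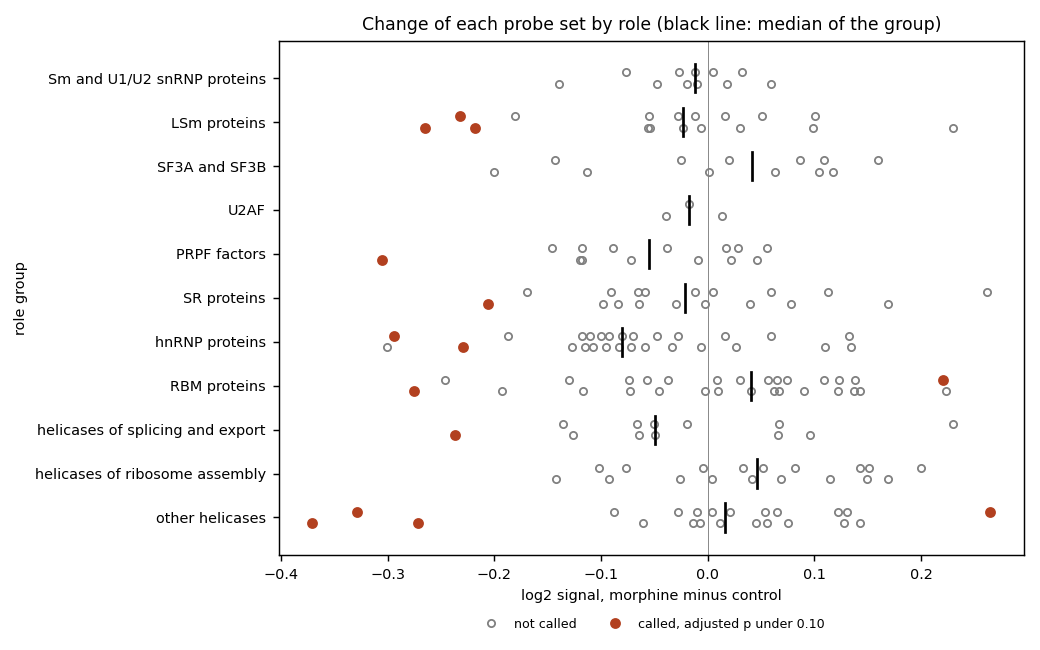
Difference in log2 signal, morphine minus control (x axis), of all 183 probe sets in their 11 role groups (y axis), with called probe sets filled in red and a black line at the median of each group. The hnRNP points lie mostly left of 0 and the helicases of ribosome assembly mostly right of it, and the called points are few in any group.

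Helicase genes gave 52 probe sets for 37 genes, with 4 lower (7.69%, against 3.72% of all) and 1 higher (1.92%, against 3.13%). The lowest limma adjusted p of all members was that of ddx11, whose product is a DNA helicase of sister chromatid cohesion and not an RNA helicase despite its family name. It had 5.82, 5.94 and 6.05 in morphine pools and 6.15, 6.24 and 6.38 in control pools. The groups were separate, with a difference of -0.33 ± 0.06 (limma adjusted p = 0.00268), which held without each array (up to 0.00857) and without the 3 arrays (0.0287). The largest difference of all was in ddx19b, a helicase that releases mRNA at the cytoplasmic side of the nuclear pore. One probe set had 8.27, 8.37 and 8.54 in morphine pools and 8.66, 8.71 and 9.08 in control pools, again without overlap, and the 9.08 of control pool 2 stood above the other control pools (8.66 to 8.77). The difference was -0.37 ± 0.07 (limma adjusted p = 0.00617), and 0.00777 without the 3 arrays, which include that pool. The second ddx19b probe set had 6.58, 6.93 and 7.03 in morphine pools and 6.98, 7.16 and 7.26 in control pools. It moved the same way with some overlap (difference -0.27 ± 0.08, limma adjusted p = 0.0724, and 0.0795 without the 3 arrays), and its call was lost without control pool 2, 3, 5 or 6 or morphine pool 2 or 4 (up to 0.157).

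The role group of splicing and export helicases did not include ddx19b, which was counted with ddx11 and ddx20 among the other helicases. Of the 22 probe sets of those other helicases, 3 were called lower and 1 higher (18.2% called, against 6.85% of all probe sets). Of the 12 probe sets in the group of splicing and export, ddx42 was the called one (8.33%, near the 6.85% of all probe sets). In human cells its product associates with SF3B. It had 7.15, 7.36 and 7.57 in morphine pools, a wider spread than the 7.55, 7.57 and 7.62 in control pools. The difference was -0.24 ± 0.07 (limma adjusted p = 0.0549). Leaving out control pool 1, 3 or 4 or morphine pool 2 or 5 ended the call (up to 0.115), and so did leaving out the 3 arrays (0.181). A probe set of ddx17, a relative of the splicing cofactor ddx5, differed by 0.23 (limma adjusted p = 0.28) and was called with the replicate block (0.0702), with array weights (0.0968) and without the 3 arrays (0.0374). The only helicase that was higher was ddx20, the Gemin3 subunit of the SMN complex, which loads Sm rings onto snRNAs. It had 5.90, 6.09 and 6.25 in morphine pools and 5.70, 5.79 and 5.93 in control pools, and 5 of the 6 morphine pools were above all control pools. Its difference was 0.27 ± 0.07 (limma adjusted p = 0.0279), kept without each array and without the 3 (0.0345), whereas a second ddx20 probe set differed by -0.01 (0.978).

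None of the 18 probe sets for helicases of ribosome assembly was called, against 6.85% of all probe sets. Of the 18, 12 were above 0 and 5 had an unadjusted limma p under 0.05 (27.8%, against 16.6% of all probe sets). The helicase of ribosomal RNA synthesis and processing, ddx21, was the brightest. It had 10.48, 10.58 and 10.63 in morphine pools and 10.35, 10.40 and 10.56 in control pools (difference 0.15 ± 0.05, limma adjusted p = 0.115). It passed the threshold with array weights (0.061) and with the actin difference as a covariate (0.0859), among other settings. The germ cell helicase ddx4 (vasa) gave a dim signal of 3.88, 4.10 and 4.21 in morphine pools and 3.93, 4.08 and 4.28 in control pools (difference -0.03 ± 0.07, limma adjusted p = 0.901).

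Of the 139 genes, 107 had 1 probe set and 32 had 2 to 4, 76 probe sets in all. The differences had the same sign in all probe sets of 13 of these 32 genes and mixed signs in 19. Over all 183 members the median size of a difference was 0.0724 and the median standard error 0.0659. The sign of an uncalled probe set therefore says little. Only ddx19b had every probe set called. In ddx20, hnrnpub, lsm12a and prpf3 some but not all were, and in the other 27 genes none were. No gene had called probe sets in opposite directions. The called and uncalled probe sets of ddx20 (limma adjusted p over all pairs 0.453), prpf3 (0.5) and lsm12a (0.648 and 0.732) were not shown to differ from each other. Pair by pair, 30 of 58 pairs of probe sets had the same sign (51.7%, against 60.8% of all pairs of 1 gene on the array). Over the 12 arrays, which share the normalization, the 2 probe sets of a pair had a median correlation of 0.06 (-0.64 to 0.85), given as a description.

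**Figure D3:**
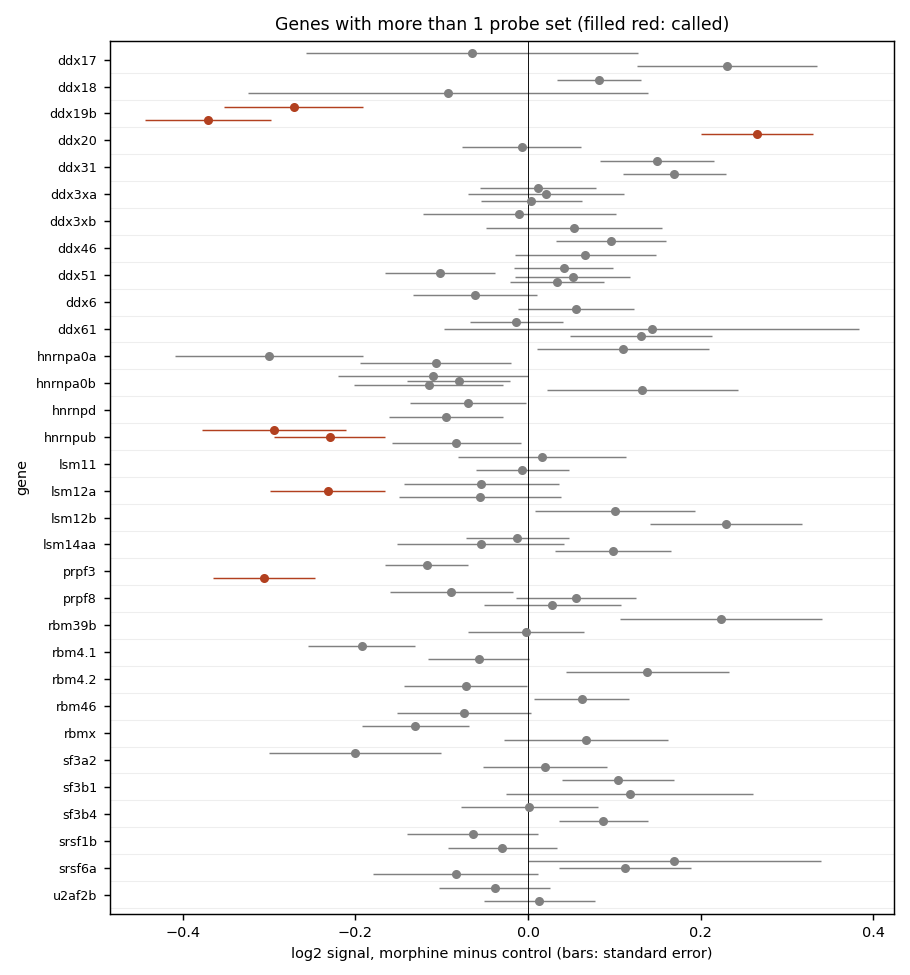
Difference in log2 signal, morphine minus control (x axis), with its standard error as a bar, for each probe set of the 32 genes with more than 1 (y axis), called ones in red. Both ddx19b probe sets are called at the left, and the single called probe sets of ddx20, lsm12a and prpf3 have error bars that end short of 0, while the difference from their uncalled partners did not pass the pair test.

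Whether the probe sets of 1 gene differed in their response was tested in each pair by fitting the difference of their log2 signals. The responses differed in 1 of the 58 member pairs, while 1.96% of the 2608 such pairs on the array did. With the replicate block it was again 1 member pair, against 3.87% of those pairs. This was in hnrnpa0a, an hnRNP of the A family. One of its probe sets had 6.36, 6.65 and 6.90 in morphine pools and 6.31, 6.57 and 6.67 in control pools, a difference of 0.11. Another had 10.65, 10.97 and 11.33 in morphine pools and 11.05, 11.35 and 11.46 in control pools, a difference of -0.30 that was not called by itself (limma adjusted p = 0.154, and 0.0362 with the replicate block). The responses of the 2 were apart by 0.41 ± 0.08 (limma adjusted p over all pairs 0.0161). Leaving out 1 array gave 0.00418 to 0.06, and leaving out the 3 arrays 0.122, which ends the call. The remaining probe set of the gene lay between them at -0.11 (0.604), so the annotation to 1 gene does not settle which probe set stands for it.

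**Figure D4:**
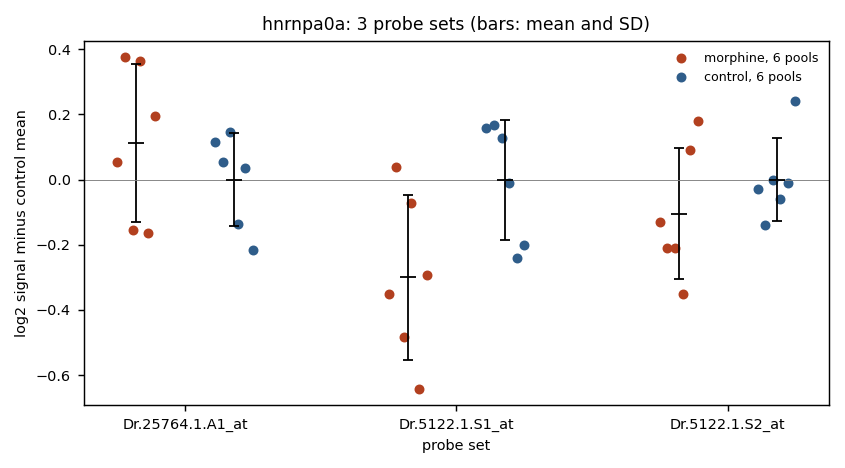
Log2 signal of each pool minus the mean of the control pools (y axis) for the 3 probe sets of hnrnpa0a (x axis), morphine pools in red left of control pools in blue, with bars for the mean and SD of 6 pools each. The morphine mean is above the control mean in the left probe set and below it in the other 2, and pools of the groups overlap in all 3.

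Zebrafish keep many splicing genes as pairs from the genome duplication of the teleost fish. The members held 17 pairs with symbols that differ only in a final a or b, not counting snrpa with snrpb. The pairs of the whole array, given next, had no such exclusion. Some member pairs, such as ddx19a and ddx19b, have namesakes in mammals. In 11 of the 17 both genes had the same sign. Taking the brightest probe set of each gene, the response differed in 1 pair, against 9.94% of the 664 such pairs on the array. In that pair ddx19a was dim, with 3.46, 3.54 and 3.72 in morphine pools and 3.40, 3.48 and 3.67 in control pools, and differed by 0.07, while ddx19b differed by -0.37. The distance between them was 0.44 ± 0.08 (limma adjusted p over all such pairs 0.00263, and 0.00729 without the 3 arrays). A signal as low as that of ddx19a leaves little room for a decrease to be seen. The replicate block added lsm12a with lsm12b (0.0708) and hnrnpa0a with hnrnpa0b (0.0834). The brightest lsm12a probe set, used there, was not the called one and differed by -0.05, while that of lsm12b differed by 0.23.

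**Figure D5:**
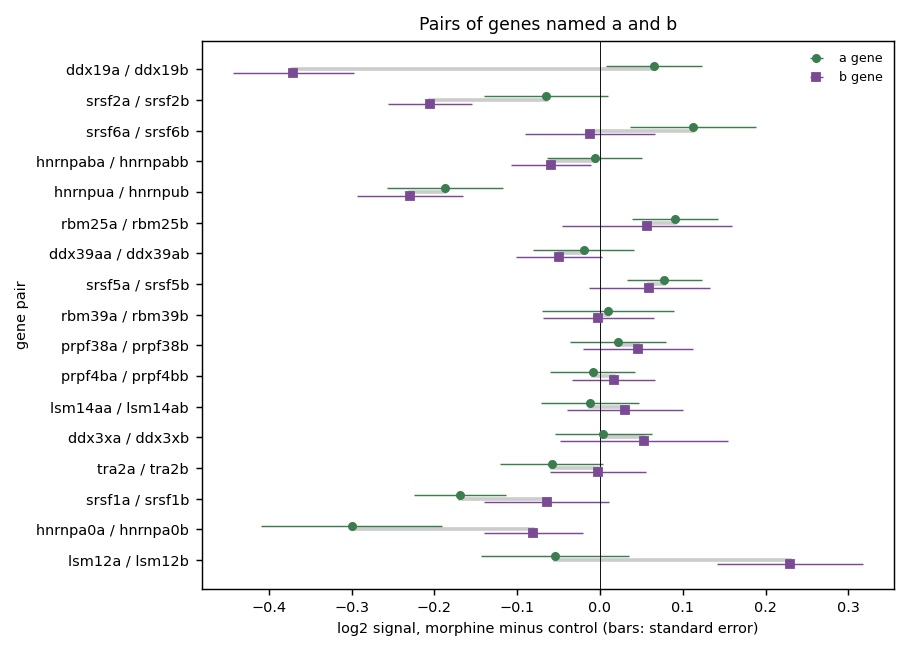
Difference in log2 signal, morphine minus control (x axis), with its standard error, for the a gene (green circles) and the b gene (purple squares) of 17 pairs (y axis), joined by a grey line. Only the ddx19 pair passed the test of the distance between its genes, and most other pairs sit within each other's error bars.

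Splicing genes outside the symbol rule were taken from lists, although the list of SR protein kinases also names the member prpf4bb. In the list of other core spliceosome components, 5 of 53 probe sets were called (9.43%, against 6.85% of all probe sets), with 4 lower and 1 higher. The lower ones were ctnnbl1, a partner of the PRPF19 complex, with 8.10 ± 0.13 in morphine pools and 8.39 ± 0.04 in control pools (SD, n = 6 each; difference -0.30, limma adjusted p = 0.0073), the U5 protein txnl4a (-0.26, 0.0354), the tri-snRNP protein zmat2 (-0.26, 0.0679) and tcerg1b, which links transcription elongation to splicing (-0.24, 0.0776). The higher one was sart3, a recycling factor of U4/U6 (0.24, limma adjusted p = 0.0845). Without the 3 arrays ctnnbl1 (0.0375) and txnl4a (0.0795) were still called, and zmat2 (0.119), tcerg1b (0.148) and sart3 (0.194) were not. The calls of ctnnbl1 and txnl4a held without each array in turn. That of zmat2 was lost without control pool 3, 4 or 6 or morphine pool 2 (up to 0.149), that of sart3 without control pools 1 to 3 or morphine pool 2, 4, 5 or 6 (up to 0.183) or with array weights (0.126), and that of tcerg1b without any array but control pool 2 and morphine pools 4 and 6 (up to 0.173).

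For snRNP assembly, 1 of 17 probe sets was called (5.88%, against 6.85% of all probe sets). This was wdr77, the partner of the methyltransferase that modifies Sm proteins, with 8.96 ± 0.12 in morphine pools and 8.75 ± 0.04 in control pools (SD, n = 6 each; difference 0.21, limma adjusted p = 0.0456, with 0.105 without control pool 3 and 0.102 without the 3 arrays). Other splicing regulators had 1 of 63 called (1.59%, against 6.85% of all probe sets). It was the splicing and stress granule protein tia1, at a dim 4.17 ± 0.08 in morphine pools and 4.43 ± 0.12 in control pools (difference -0.26, limma adjusted p = 0.0206, and 0.059 without the 3 arrays). None of the 6 probe sets of SR protein kinases or the 21 of the exon junction complex and mRNA export was called, against 6.85% of all. The export list did not hold ddx19b, whose 2 probe sets were called lower. None of 24 was called for proliferation genes, which are high in dividing cells as many splicing factors are. Of 15 probe sets for early genes that decline during the first day, only the transcription factor sox19a was called (6.67%, against 6.85% of all probe sets). Its difference was -0.20 (limma adjusted p = 0.0446, with 0.105 without control pool 6, 0.104 with a second quantile normalization and 0.0939 without the 3 arrays).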

How the data were processed

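RNA of 12 pools was hybridised to 12 arrays. The deposited log2 signals were made by the authors with RMA, which corrects background, normalizes over the arrays and summarises probes to probe sets. For its version, the sources used here give none. The number of arrays limits the precision. The labels name the pools as biological replicates. The p-values set the difference between groups against the spread between pools, and the main fit treats the 12 pools as independent.

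Of 15617 probe sets, 115 are manufacturer's controls and were not used. Of the 15502 tested, the annotation gives 10795 a single gene, 135 several and 4572 none. All 183 member symbols are unchanged in the current reference. The two-sided test was that of limma 3.58.1 (R 4.3.3), and p-values were adjusted by Benjamini and Hochberg's procedure across every probe set. Pairs of probe sets of 1 gene and of a and b genes were fitted as differences of log2 signals, adjusted over all such pairs. Summaries and figures used Python 3.11.15 and matplotlib 3.10.9. The fits were tested on simulated data with noise drawn independently for each array, which does not cover likeness between arrays.

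The members and lists were chosen with earlier results of these data known. Named by rule were every called member, genes with disagreeing probe sets, the brightest probe set of each role group without a call, ddx4, and up to 3 called genes per direction in each further list. Named after their values were seen were tcerg1b, other subunits and partner genes of called members, hnrnpdl, and members called only under an alternative. The tests of a and b genes and the fits without 3 arrays were also added after seeing the data.

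Morphine and control arrays of the same replicate number correlated at 0.225 to 0.471 once group means were removed (mean 0.302, against -0.058 for different numbers). Pools of the same number thus resembled each other across the groups. The sources do not say what they stand for. The main fit has no block and does not use this pairing. The fit with the replicate block, which does, is given as an alternative. Others were SAM (the methods' test) with 100 permutations, trend and robust variance, array weights, a second quantile normalization, median centring, bright probe sets only, no probe sets with a suffix for shared sequence, the actin covariate, a threshold of 0.05 and leaving out each array.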

Additional observations from a re-analysis of the deposited data

Results flagged for a closer look

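In 4 of 54 groups of 6 pools, 1 pool lay far from the other 5 by Dixon's test, of which chance flags about 1 in 20. All 4 were control pools 1 or 2, which also stood apart on the first principal component. Control pool 2 was high for ddx19b (9.08, others 8.66 to 8.77) and srsf2b (8.95, others 8.79 to 8.83) and low for u2af2b (9.84, others 10.11 to 10.17). Control pool 1 was low for prpf3 (7.18, others 7.34 to 7.43).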

How the results depend on the processing

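SAM called the same 14 members (7.65%, against 7.16% of all probe sets). The replicate block called 24, with 6 higher, and lost none of the 14. A threshold of 0.05 left 7 of the 183 members, 1 higher and 6 lower. Of all 15502 probe sets it left 720, with 317 higher and 403 lower. Array weights called 17 members (9.29%, against 7.99% of all probe sets), 5 of them higher. Without the 3 arrays 9 members were called, 7 of them lower, and no pair of probe sets. Leaving out 1 array gave 8 to 17 called members, 1 to 4 higher and 7 to 15 lower. Of all probe sets these fits called 779 to 1152. There were 8 members without morphine pool 4 (4.37%, against 5.26% of all probe sets) and 17 without morphine pool 6 (9.29%, against 6.7%). Without control pool 1, 3, 5 or 6 there were 9 (4.92%, against 5.17% to 5.63%). A second quantile normalization turned the median of the members to 0.01 (all probe sets 0.00064). Over 27 named probe sets and 617 values, 537 kept direction and side of the threshold, 58 fell short of it, 9 passed it and 13 changed sign, all in uncalled probe sets near 0. These were u2af2b (-0.0174 with array weights, -0.00736 with the actin covariate, -0.0107 without the 3 arrays, -0.0363 to 0.0364 leaving out 1 array), the dim hnrnpub probe set (0.00783 without the 3 arrays), sf3b5 (0.00335 with the second normalization), the second ddx20 probe set (-0.0541 to 0.0309) and ddx4 (-0.0614 to 0.0109), both leaving out 1 array. The causes were not tested. Dim probe sets, among them ddx4, ddx19a and the second prpf3 probe set, limit what can be seen of a decrease.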

Other observations

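In the order of genes along the current reference genome, 2 of the 12 genes with a called member lay next to another array gene that was called. The centriole assembly gene sass6, next to lsm7, was lower in morphine embryos (difference -0.487, limma adjusted p = 0.000958), and ice1, next to prpf3, was higher (0.266, 0.0136), opposite to prpf3. Of the 748 called genes, 21.5% had a called neighbour, and of all 8723 genes placed, 16.2%. The helicase gene ddx49 lies next to lsm4 and differed by -0.14 (0.213). These neighbours were looked up after the values were seen.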
